A study of Mus musculus with 12 samples.

Results

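The miRNAs described here are mmu-miR-10a, mmu-miR-10b and mmu-miR-196b (written miR-10a, miR-10b and miR-196b below), which are encoded inside the mouse Hox clusters. They were taken by name from a NanoString nCounter table and make up 3 of its 599 probes, which target 566 miRNAs or miRNA groups of the mouse and 33 of herpesviruses. All 3 passed the filter on low values, as did 226 mouse probes in all. The table holds normalised signal from the ileum, the last stretch of the small intestine, of 12 mice. All of them were male NOD mice, an inbred strain prone to autoimmune diabetes, at postnatal day 23 (P23). Of these, 4 had received a transfer of cecal material (cecal transfer), 4 are labelled "1PAT antibiotics" (antibiotic), and 4 are labelled control.

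The labels do not explain 1PAT, and they do not state whether the cecal transfer mice had also been given antibiotic. Whole NOD/ShiLtJ litters with their dams were assigned to the groups at random, and the litter of each library is not given. P-values therefore measure the spread between libraries that may share a litter. All 12 libraries carry 1 batch label. The tissue label is ileum, while the series' design text refers to intestinal epithelial cells. The libraries held both epithelial and smooth muscle miRNAs at high signal. The epithelial miR-194 averaged 9739 units over the 12 libraries, and miR-145, which is typical of smooth muscle and fibroblasts, averaged 24186 units. In bulk tissue, fewer cells of a type and less RNA per cell cannot be told apart.

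Hox genes lie in clusters on separate chromosomes and give cells of the embryo their position along the body axis, and the miRNAs inside the clusters are switched on in similarly restricted domains. miR-196 directs cleavage of Hoxb8 mRNA in mouse embryos, and miR-10b represses HOXD10 in human breast cancer cells. In mouse dendritic cells the gut microbiota lowers miR-10a, which targets the mRNA of the shared p40 subunit of IL-12 and IL-23, and miR-10a is also known from mouse regulatory T cells.

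The mature sequences show why the 3 probes fall into pairs of near-identical miRNAs. The panel names give no arm, so the 5p arm of RefSeq (GRCm38.p6) is shown, read 5′ to 3′, with the seed (bases 2 to 8) in capitals. The first group holds miR-10a and miR-10b, the second miR-196b and its relative miR-196a, and the third the miR-99 and miR-100 relatives of miR-10.
miR-10a: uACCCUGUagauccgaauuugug
miR-10b: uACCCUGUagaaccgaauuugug
miR-196b: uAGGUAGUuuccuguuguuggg
miR-196a: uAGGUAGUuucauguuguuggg
miR-100: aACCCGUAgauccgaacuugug
miR-99a: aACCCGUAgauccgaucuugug
miR-99b: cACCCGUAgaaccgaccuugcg

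miR-10a and miR-10b, both 23 bases long, shared their seed and differed at 1 base, U12A, counted from 1 at the 5′ end with the miR-10a base first. miR-196a and miR-196b, both 22 bases long, also shared their seed and differed at 1 base, A12C, with the miR-196a base first. The seed ACCCUGU belonged to 2 mature names in the RefSeq table, AGGUAGU to 2 and ACCCGUA to 3. miR-100 and miR-10a have different seeds, and their longest shared run was 11 bases, GUAGAUCCGAA, starting at base 6 of miR-100 and base 7 of miR-10a. Whether a probe of the panel also detects the near-identical relative of its target was not tested.

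The hairpins differ more than the mature miRNAs and place each member in a different Hox cluster. They are shown whole, on the transcribed strand, with the mature miRNA in capitals.
Mir10a: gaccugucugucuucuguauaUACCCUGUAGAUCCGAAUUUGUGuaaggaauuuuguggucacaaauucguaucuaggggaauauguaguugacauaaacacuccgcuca
Mir10b: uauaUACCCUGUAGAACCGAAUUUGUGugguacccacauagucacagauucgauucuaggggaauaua
Mir196b: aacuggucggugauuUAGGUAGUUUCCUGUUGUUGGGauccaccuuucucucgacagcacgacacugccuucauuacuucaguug

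Mir10a lies at chr11:96317165-96317274 on the plus strand (GRCm38.p6), inside the annotated span of Hoxb3 and 992 bases from Hoxb4. Mir10b lies at chr2:74726070-74726137 on the plus strand, inside the annotated spans of Hoxd3 and Hoxd4. Mir196b lies at chr6:52230081-52230165 on the minus strand, between Hoxa9 at 2710 bases and Hoxa10 at 1031 bases. The mature miR-196a is made from 2 loci, Mir196a-1 beside Hoxb9 on chromosome 11 and Mir196a-2 between Hoxc10 and Hoxc9 on chromosome 15. The annotation table used gives gene spans only, so whether Mir10a and Mir10b are intronic or exonic is not stated here.

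Depth moved with the groups. Each deposited signal is a whole number of counted reporters times 1 factor per library, and the recovered totals ranged from 280114 to 393551 counts in cecal transfer libraries, from 120235 to 148297 in antibiotic libraries and from 169844 to 274302 in control libraries. These ranges did not overlap. Control replicate 3 stood apart from the other controls at 9 of the 226 tested probes by Dixon's test, antibiotic replicate 2 from the other antibiotic libraries at 8, and the other libraries at 0 to 7. Where a member's log2 fold change moved by over 1.5 times or its call changed without one of these 2 libraries, the value without it is given beside it.

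miR-10a was the most abundant of the members, ranking 54 of 566 mouse probes by mean signal, and it was highest in cecal transfer ileum. miR-10a had 990, 919, 1038 and 1068 units in the cecal transfer libraries, 417, 741, 438 and 402 units in the antibiotic libraries, and 317, 291, 272 and 444 units in the control libraries. Every cecal transfer library lay above every library of the other groups, while the antibiotic and control ranges overlapped, with antibiotic replicate 2 alone above all controls. The means were 1004 ± 64.8 units in cecal transfer, 499 ± 161 in antibiotic and 331 ± 77.6 in control libraries (SD, n = 4 each). Without its replicate 2 the antibiotic mean was 419 ± 18.5 (SD, n = 3). The cecal transfer values rested on 1249 to 1810 counts, the antibiotic values on 228 to 456 and the control values on 195 to 388.

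Differences were tested with limma's moderated test on log2(signal + 1) over the 226 tested probes, with Benjamini-Hochberg adjustment and a threshold of 0.05. miR-10a rose 3.08-fold in cecal transfer against control, a log2 change of 1.62 (SE 0.18, 95% interval 1.23 to 2.01, adjusted p = 2.45e-05). Its change ranked 2 of 226, the highest first, in this comparison. It also rose in cecal transfer against antibiotic, by 2.07-fold (log2 1.05, SE 0.18, 95% interval 0.66 to 1.44, adjusted p = 0.000837). The antibiotic minus control value was 0.57 on the log2 scale (SE 0.18, 95% interval 0.18 to 0.96), with an unadjusted p of 0.00766 and an adjusted p of 0.129. It was 0.36 without antibiotic replicate 2 (adjusted p = 0.196) and 0.28 without both that library and control replicate 3 (adjusted p = 0.299). Leaving out control replicate 4 instead gave 0.72, which was called (adjusted p = 0.0364). With log2 depth as a covariate the value against control was 1.51 (adjusted p = 0.00991), while the value against antibiotic was 0.83 and its call was lost (adjusted p = 0.442). That fit called 0 of 226 probes in cecal transfer minus antibiotic.

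miR-10b, with the same seed as miR-10a, ranked 76 by mean signal and was lowest in cecal transfer ileum. miR-10b had 244.2, 244.2, 232.0 and 231.3 units in the cecal transfer libraries, 292.2, 220.9, 292.3 and 297.6 units in the antibiotic libraries, and 292.4, 284.8, 340.7 and 303.5 units in the control libraries. All cecal transfer libraries lay below all controls. The antibiotic libraries overlapped both other groups, since replicate 2 lay below every cecal transfer library and the other 3 lay within the control range. The means were 238 ± 7.25 units in cecal transfer, 276 ± 36.7 in antibiotic and 305 ± 24.8 in control libraries (SD, n = 4 each). Without replicate 2 the antibiotic mean was 294 ± 3.08, and without replicate 3 the control mean was 294 ± 9.38 (SD, n = 3 each).

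miR-10b fell 1.28-fold in cecal transfer against control, a log2 change of -0.36 (SE 0.10, 95% interval -0.58 to -0.14, adjusted p = 0.0186). The cecal transfer minus antibiotic value was -0.20 (SE 0.10, 95% interval -0.42 to 0.02, adjusted p = 0.159). It was -0.30 and called without antibiotic replicate 2 (adjusted p = 0.0143). Weighting the libraries (array weights) with all of them kept also gave a call (-0.24, adjusted p = 0.0370). The antibiotic minus control value was -0.15 (SE 0.10, 95% interval -0.37 to 0.07, adjusted p = 0.459), and it was -0.05 without antibiotic replicate 2 and -0.10 without control replicate 3. The call against control was lost with depth as a covariate (log2 -0.21, adjusted p = 0.506), without control replicate 3 (-0.30, adjusted p = 0.0557) and without cecal transfer replicate 4 (-0.34, adjusted p = 0.0523).

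miR-196b was the weakest of the members, ranking 102 by mean signal, and the most variable. miR-196b had 127.7, 103.2, 76.2 and 79.6 units in the cecal transfer libraries, 41.7, 78.0, 53.8 and 52.0 units in the antibiotic libraries, and 113.3, 148.8, 776.4 and 84.8 units in the control libraries. Control replicate 3 was far above every other library, all antibiotic libraries lay below all controls, and the cecal transfer range overlapped both. The means were 96.7 ± 23.9 units in cecal transfer, 56.4 ± 15.3 in antibiotic and 281 ± 331 in control libraries (SD, n = 4 each). Without replicate 3 the control mean was 116 ± 32.1 (SD, n = 3). The residual SD of miR-196b, 0.87 on the log2 scale, ranked 3 of 226, the highest first, against 0.30 for miR-10a, 0.14 for miR-10b and a median of 0.19.

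No pairwise comparison of miR-196b passed the threshold. The antibiotic minus control value was -1.72 on the log2 scale (SE 0.50, 95% interval -2.80 to -0.63), with an unadjusted p of 0.0043 and an adjusted p of 0.119. Without control replicate 3 it was -1.02 (adjusted p = 0.0632), and without both that library and antibiotic replicate 2 it was -1.19 (adjusted p = 0.0433). Leaving out control replicate 4 instead gave -2.08 (adjusted p = 0.0364). The cecal transfer minus control value was -0.94 (SE 0.50, 95% interval -2.02 to 0.14, adjusted p = 0.188), and -0.25 without control replicate 3. The cecal transfer minus antibiotic value was 0.77 (SE 0.50, 95% interval -0.31 to 1.85, adjusted p = 0.280). With control replicate 3 left out the value was again 0.77, and its adjusted p was 0.0149.

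The antibiotic values of miR-196b rested on 24 to 48 counts, against 92 to 161 in cecal transfer and 74 to 556 in control libraries. The lowest, antibiotic replicate 1 with 24 counts, had a 95% exact Poisson interval of 26.7 to 62.1 units, which covers counting error only. One herpesvirus probe, the brightest of the 33 in every library, read 50.1 to 98.5 units in cecal transfer, 86.6 to 146 in antibiotic and 69.1 to 426 in control libraries. It was brighter than miR-196b in all 4 antibiotic libraries and in control replicates 1 and 4. Its highest value, 426 units, was in control replicate 3, the library with the highest miR-196b, and its part in that value was not tested. In that library the herpesvirus probe was also brighter than miR-10a (272 units) and miR-10b (340.7 units). The second-brightest herpesvirus probe read 23.2 to 41.1 units over the 12 libraries.

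**Figure D1:**
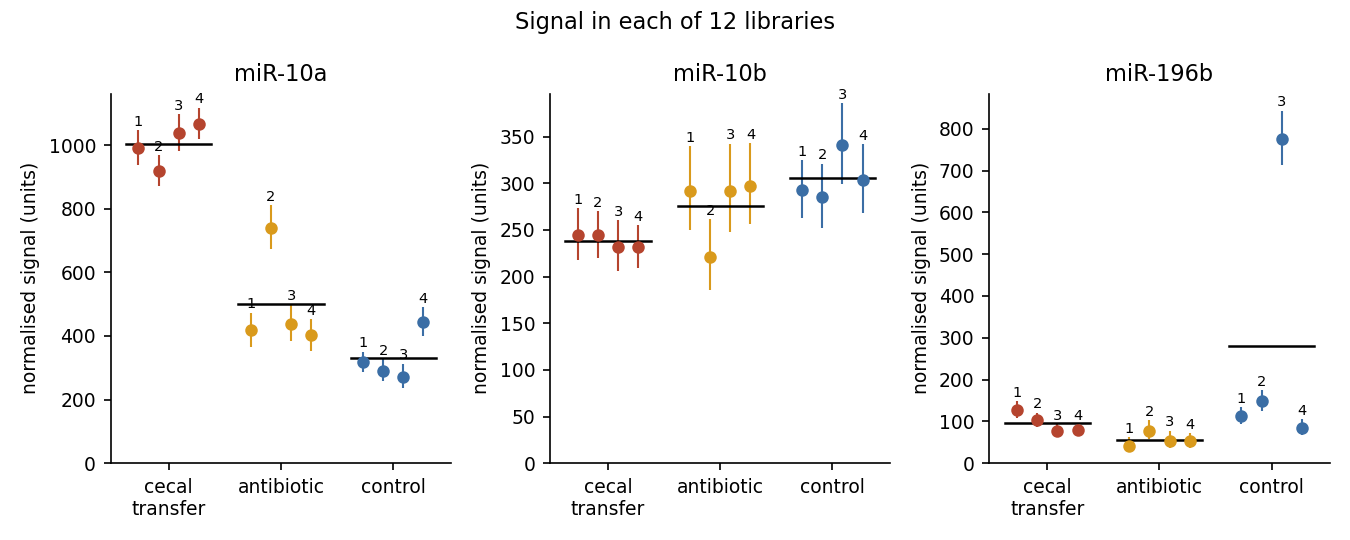
Normalised signal (units, linear axes from 0) of each member in each library, with replicate numbers, exact 95% counting intervals as vertical lines and group means as horizontal lines. The 4 cecal transfer libraries lie at 919 to 1068 units for miR-10a, above all others, and at 231.3 to 244.2 for miR-10b, below all controls, while control replicate 3 stands at 776.4 for miR-196b.

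The plot of signal by library also shows how the order of the groups differs between members. For miR-10a the order of the means was cecal transfer, antibiotic, control, with no difference past the threshold between the antibiotic and control neighbours. For miR-10b the order was the reverse, and neither pair of neighbours differed past the threshold. For miR-196b it was control, cecal transfer, antibiotic, again with no neighbouring pair past the threshold.

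Against control, cecal transfer had 1 member that rose, 1 that fell and 1 that did not pass, where 30.1% of all tested probes were called, 18.1% higher and 11.9% lower. Against antibiotic, cecal transfer had 1 member that rose and 2 that did not pass, where 32.7% of all tested probes were called, 19.9% higher and 12.8% lower. The split of calls moved with the scaling, with 28 higher and 28 lower against control after median centring, where the deposited scaling gave 41 and 27. Against antibiotic it was 22 higher and 32 lower after median centring, where the deposited scaling gave 45 and 29. In antibiotic minus control limma called 0 members and 0% of all tested probes, while 34 of 226 had an unadjusted p under 0.05. edgeR called 0 probes there and DESeq2 called 3, all lower, on the recovered counts.

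Ranges that did not overlap were frequent too. Cecal transfer lay wholly above control at 16.8% of tested probes and wholly below at 12.8%, and it lay wholly above antibiotic at 19.9% and wholly below at 13.7%. Antibiotic lay wholly below control at 2.21% of tested probes, among them miR-196b, and wholly above it at 6.19%. The moderated F test over the 3 groups called 32.3% of tested probes, with adjusted p = 6.09e-05 for miR-10a, 0.0404 for miR-10b and 0.0452 for miR-196b. The call of miR-10a held in all 24 alternatives, while 16 of 24 lost that of miR-10b and 10 of 24 lost that of miR-196b. The median log2 change of 3 members is the value of 1 of them, and the members' signs differed in every comparison. In cecal transfer minus control the median was -0.36, that of miR-10b, against 0.05 over all tested probes. It was 0.77, that of miR-196b, against 0.04 in cecal transfer minus antibiotic. In antibiotic minus control it was -0.15, that of miR-10b, against 0.01. Comparisons with cecal transfer share its 4 libraries, and those against control share the 4 controls.

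**Figure D2:**
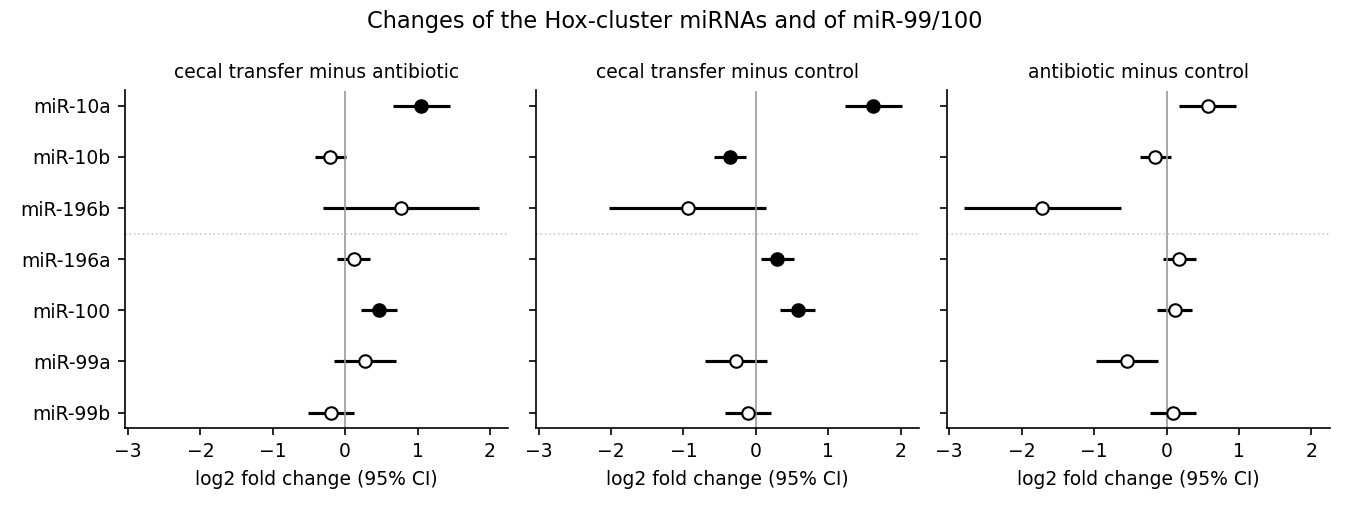
Log2 fold change with its 95% interval for the members (above the dotted line) and for miR-196a, miR-100, miR-99a and miR-99b, in cecal transfer minus antibiotic, cecal transfer minus control and antibiotic minus control. Filled points passed an adjusted p of 0.05: miR-10a lies at 1.05 and 1.62 in the first and second panels, miR-10b is filled only against control at -0.36, and no point is filled in antibiotic minus control.

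The panel of fold changes shows the relatives beside the members. miR-196a, which differs from miR-196b at 1 base, had 357, 306, 259 and 296 units in the cecal transfer libraries, 304, 274, 281 and 257 in the antibiotic libraries, and 243, 270, 257 and 218 in the control libraries. Its values varied far less than those of miR-196b, with a residual SD of 0.15 on the log2 scale, and its groups overlapped. It was called higher in cecal transfer against control (log2 0.30, SE 0.11, adjusted p = 0.0471), but 21 of 27 alternatives lost the call, with adjusted p of 0.0248 to 0.401 over all of them. The cecal transfer minus antibiotic value was 0.12 (adjusted p = 0.437) and the antibiotic minus control value 0.18 (adjusted p = 0.449).

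Of the 3 other Hox-cluster probes, miR-196a was tested and passed in 1 comparison, and both miR-615 probes were below the filter of 32 units. Mir615 lies inside the span of Hoxc5. miR-615-3p averaged 5.71 units in cecal transfer, 16.7 in antibiotic and 11.7 in control libraries, on 4 to 16 counts per library. miR-615-5p averaged 2.68, 3.48 and 2.10 units in the same order of groups. Values this low are within the range of the herpesvirus probes, and no fold is given.

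Of the 3 relatives of miR-10 by sequence, miR-100 rose and miR-99a and miR-99b passed in no comparison. miR-100 averaged 406 ± 52.1 units in cecal transfer, 293 ± 34.5 in antibiotic and 270 ± 23.7 in control libraries (SD, n = 4 each). All cecal transfer libraries of miR-100 lay above all libraries of the other groups. Its log2 change was 0.58 against control (SE 0.11, adjusted p = 0.00175) and 0.46 against antibiotic (adjusted p = 0.00822), and antibiotic minus control was 0.11 (adjusted p = 0.689). The call against antibiotic was lost after median centring (0.38, adjusted p = 0.0605) and with depth as a covariate (0.86, adjusted p = 0.260). miR-99a averaged 252 ± 62.4 units in cecal transfer, 208 ± 53.5 in antibiotic and 303 ± 61.8 in control libraries, with adjusted p of 0.152 to 0.368 over the comparisons. miR-99b averaged 202 ± 53.7, 227 ± 16.7 and 214 ± 23.5 units in the same order of groups, with adjusted p of 0.360 to 0.831. Without cecal transfer replicate 1, miR-99b was called lower in cecal transfer against antibiotic (log2 -0.36, adjusted p = 0.0343).

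Because miR-10a and miR-10b share a seed, their ratio was followed in each library as log2(miR-10a/miR-10b), set to 0 at the control mean. The ratio was 1.92, 1.81, 2.06 and 2.11 in the cecal transfer libraries, 0.42, 1.65, 0.49 and 0.34 in the antibiotic libraries, and 0.02, -0.06, -0.42 and 0.46 in the control libraries. Antibiotic replicate 2 stood near the cecal transfer libraries, and the other antibiotic libraries stood near or above the highest control. The mean was 1.98 ± 0.13 in cecal transfer and 0.72 ± 0.62 in antibiotic libraries (SD, n = 4 each). The same ratio of miR-196b to miR-196a lay between -1.45 and -1.05 in cecal transfer libraries and between -2.41 and -1.38 in antibiotic libraries. In control libraries it was 2.02 in replicate 3 and -0.92 to -0.43 in the others. These ratios combine values already tested above and were given no test.

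**Figure D3:**
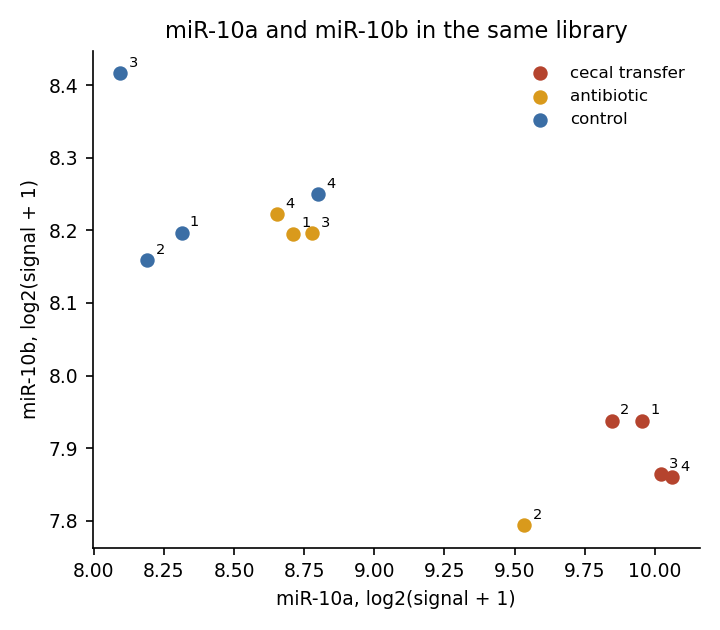
Log2(signal + 1) of miR-10a (horizontal axis) and miR-10b (vertical axis) in the same library, 1 point per library with its replicate number, colours giving the groups; neither axis starts at 0. The cecal transfer libraries form a cluster at high miR-10a and low miR-10b, antibiotic replicate 2 lies near them, and the controls lie at low miR-10a and high miR-10b.

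The plot of miR-10a against miR-10b shows opposite movement across libraries that share their group and scaling. Pearson's r of the log2 signals was -0.895 over the 12 libraries, rank 221 of 225 probes compared with miR-10a. Of deviations from the group means it was -0.771, and -0.316 without antibiotic replicate 2, so the relation within groups rested on that library. The antibiotic replicate 2 values were 741 units for miR-10a and 220.9 for miR-10b, beside 402 to 438 and 292.2 to 297.6 in the other antibiotic libraries.

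The probes most like each member are given as a description over 12 libraries that share depth, scaling and group. The 5 probes most like miR-10a were miR-322 (r = 0.971), miR-301b (0.925), miR-130a (0.924), miR-145 (0.921) and miR-125b-5p (0.912). By deviations from the group means they were miR-691 (0.936), miR-322 (0.878), miR-720 (0.834), miR-652 (0.671) and miR-361 (0.646). Without antibiotic replicate 2 these values were 0.865, 0.785, 0.560, 0.553 and 0.149, listed in that order. The 5 most like miR-10b were let-7i (0.933), the shared probe for miR-20a and miR-20b (0.905), let-7d (0.839), the epithelial miR-141 (0.828) and miR-701 (0.805). By deviations they were let-7i (0.935), miR-701 (0.903), miR-340-5p (0.828), miR-221 (0.797) and the miR-20a and miR-20b probe (0.788). Without antibiotic replicate 2 these were 0.880, 0.725, 0.413, 0.715 and 0.652.

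For miR-196b the most alike were miR-376b (0.972), miR-1186 (0.947), miR-2134 (0.930), miR-2141 (0.865) and miR-466h (0.776). These rested in part on control replicate 3: without it the values were 0.883, 0.772, 0.732, 0.379 and 0.285, listed in that order. By deviations miR-376b (0.968), miR-2141 (0.921), miR-2134 (0.917), miR-1186 (0.911) and miR-762 (0.855) were most alike, and without that library these were 0.833, 0.499, 0.611, 0.400 and 0.457.

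Marker miRNAs of other cell types also moved with the groups. The summed signal of 8 epithelial probes was 27391 to 31959 units in cecal transfer, 34373 to 39354 in antibiotic and 31332 to 43975 in control libraries. Against control, 5 of the 8 fell and 0 rose in cecal transfer. In this comparison, to which all calls of this paragraph belong, 30.1% of all tested probes were called, 18.1% higher and 11.9% lower. The summed signal of 5 smooth muscle and fibroblast probes, led by miR-145 and miR-143, was 38997 to 46958 units in cecal transfer, 31969 to 34402 in antibiotic and 28183 to 35486 in control libraries. Of the 4 tested, 3 rose in cecal transfer against control and 0 fell. In the same comparison 2 of 5 leukocyte probes rose, at sums of 2029 to 2714 units in cecal transfer, 1781 to 2079 in antibiotic and 1450 to 2644 in control libraries. Of 3 erythroid probes 2 rose, at sums of 1466 to 1981 units in cecal transfer, 1208 to 1492 in antibiotic and 1128 to 1381 in control libraries. Of 3 tested striated muscle probes 1 rose, of 2 endothelial probes 1 fell, and of 5 tested neural probes 0 passed, and the sums of these lists overlapped between cecal transfer and control. The part of these lists in the members' values was not tested beyond the ratios given next. No marker probe had a deposited value of 0. The lowest value of each library was taken as 1 count, so these counts do not show whether a probe at that value was detected.

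Each member was also set against the summed marker signal of its own library, a scaling chosen after seeing the data. Each sum was led by 1 probe that itself moved with the groups. miR-194 averaged 6478 units in cecal transfer and 12337 in control libraries, beside 5012 and 5098 for miR-200b. miR-145 averaged 30024 units in cecal transfer and 19976 in control libraries, beside 9722 and 8574 for miR-143. The ratios therefore depend heavily on miR-194 and miR-145. miR-10a per 1000 units of epithelial signal was 34.7 ± 4.30 in cecal transfer, 13.7 ± 5.30 in antibiotic and 8.95 ± 3.52 in control libraries (SD, n = 4 each). Per 1000 units of smooth muscle and fibroblast signal it was 23.4 ± 1.31 in cecal transfer, 14.8 ± 4.54 in antibiotic and 10.5 ± 1.41 in control libraries. By the ratio of geometric means, cecal transfer was 2.24-fold above control on the second scale and 4.05-fold on the first. In both cases its 4 libraries lay above all others (exact two-sided permutation p = 0.0286, the smallest that 4 against 4 allow, and 0.0572 after adjustment over 18 comparisons). No adjusted value in that family passed 0.05, and 0.0572 was the lowest, shared by every comparison at the smallest p. Even complete separation of the groups could not pass by 1 member's own values, so the missing calls show no lack of difference.

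miR-10b depended on the scale. Per 1000 units of epithelial signal it was 8.19 ± 0.43 in cecal transfer, 7.40 ± 0.72 in antibiotic and 8.06 ± 1.28 in control libraries, a log2 difference of 0.04 for cecal transfer minus control (exact permutation p = 0.771). Per 1000 units of smooth muscle and fibroblast signal it was 5.58 ± 0.67 in cecal transfer, 8.23 ± 1.23 in antibiotic and 9.86 ± 1.55 in control libraries, a log2 difference of -0.82 (exact permutation p = 0.0286). On the epithelial scale the cecal transfer range lay within the control range, and on the smooth muscle scale it lay wholly below it. miR-196b per 1000 units of epithelial signal was 2.65 to 4.49 in cecal transfer, 1.17 to 2.27 in antibiotic and 2.58 to 19.0 in control libraries, so antibiotic lay below both other groups on that scale. Per 1000 units of smooth muscle and fibroblast signal it was 1.68 to 3.27, 1.24 to 2.27 and 2.39 to 27.6 in the same order, and antibiotic then overlapped cecal transfer.

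**Figure D4:**
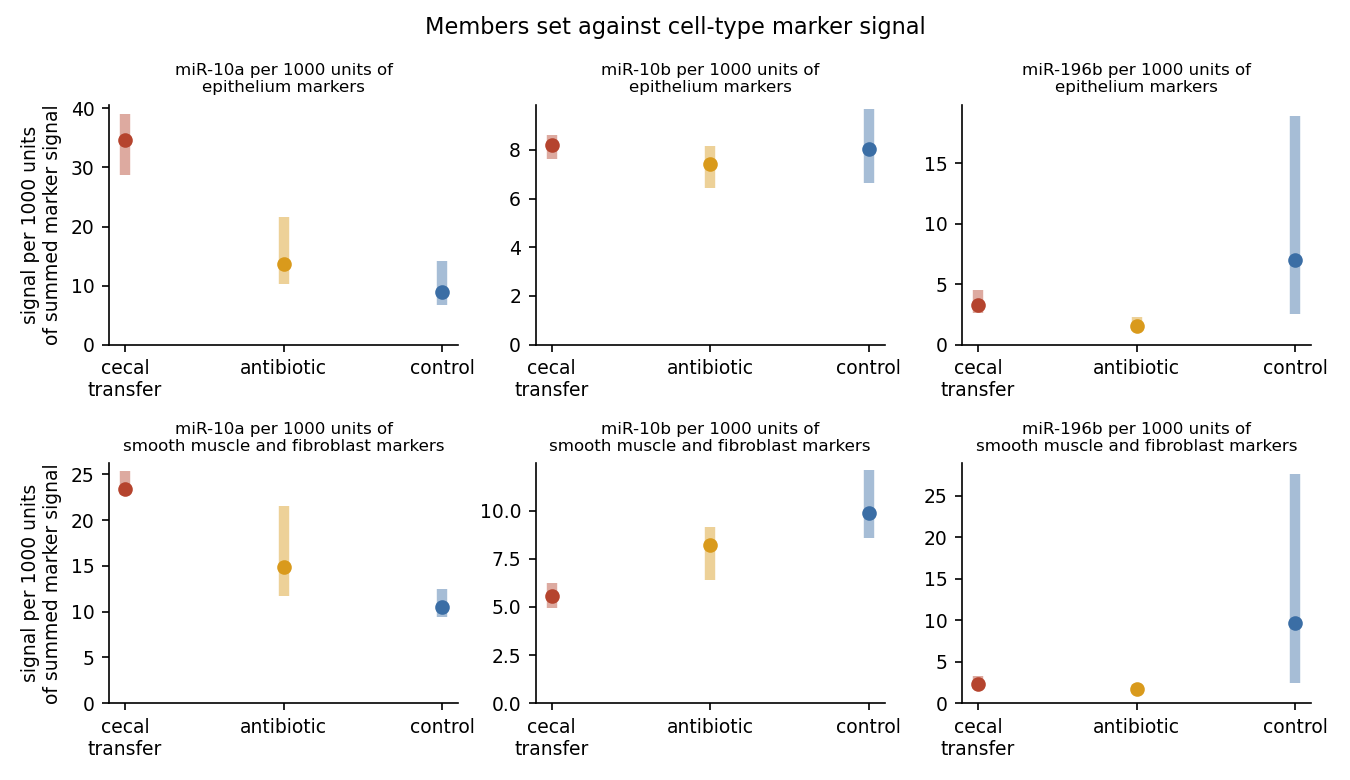
Each member's signal per 1000 units of the summed epithelial (upper row) or smooth muscle and fibroblast (lower row) marker signal of the same library; points are group means, bars the range of 4 libraries, and axes start at 0. miR-10a is highest in cecal transfer in both rows (34.7 and 23.4), while miR-10b differs between groups by little in the upper row (8.19 in cecal transfer, 8.06 in control) and is lowest in cecal transfer in the lower (5.58).

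The plot of marker-scaled signal shows miR-10a above the other groups in cecal transfer on both scales and miR-10b below them on 1. The plot of fold changes by alternative shows how far each value moved when the processing was changed.

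**Figure D5:**
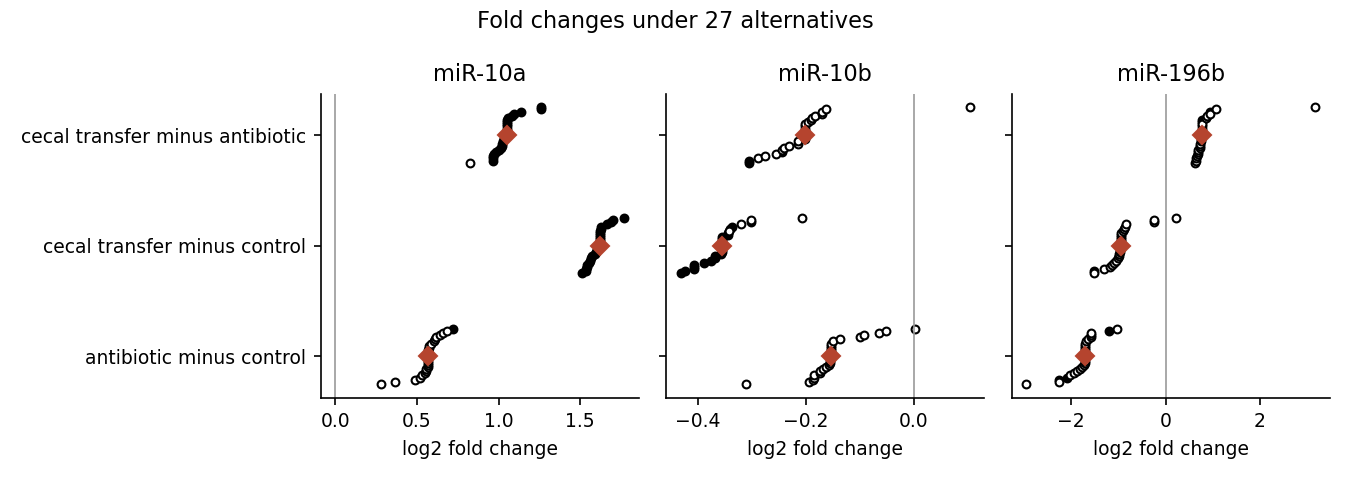
Log2 fold changes of each member under 27 alternatives (circles, filled where the adjusted p was under 0.05, spread vertically for visibility) and as reported (red diamonds), for cecal transfer minus antibiotic, cecal transfer minus control and antibiotic minus control. In cecal transfer minus control the miR-10a values run from 1.51 to 1.77 and are all filled. In the same comparison the miR-10b values run from -0.43 to -0.21, all below 0, and the miR-196b values from -1.52 to 0.22.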

How the data were processed

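The deposited table holds normalised signal per probe, measured with the mouse miRNA panel of version 1.5 per the labels' protocols. The authors' software and scaling: not given in the sources used here. The 100 brightest probes of each library summed to 220014 to 222565 units, nearly the same total throughout. A member's signal is thus relative to the other probes of its library. Each deposited signal was a whole count times 1 factor per library, with 100% of the values whole within 0.01 of a count.

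The members and lists were chosen with earlier results of these data known. The tests used log2(value + 1) of the 226 mouse probes that read over 32 in 4 or more libraries. All 12 libraries entered 1 linear model (limma 3.58.1, R 4.3.3, eBayes with trend), with Benjamini-Hochberg adjustment per comparison. Fold changes understate the change of weak probes. Ratios to marker signal were compared with exact permutation tests (scipy 1.17.1). On the recovered counts, edgeR 4.0.16 called 36 probes higher and 34 lower in cecal transfer minus control, and DESeq2 1.42.0 called 29 and 28. In cecal transfer minus antibiotic edgeR called 40 and 33, and DESeq2 29 and 25.

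Named probes are the members, the other Hox-cluster and miR-10-related probes, the 5 probes most like each member, and up to 2 abundant markers per cell type. Sequences and positions are from RefSeq tables of GRCm38.p6, in which every sequence shown was matched by name. Alternatives covered scaling, pseudocount, filter, variance trend, weights, groups fitted, depth, count models, background and each library left out.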

Additional observations from a re-analysis of the deposited data

Results flagged for a closer look

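Of 27 groups of 4 libraries examined over 9 probes, 4 held a library that stood apart from the other 3 by Dixon's test. The threshold is set to flag about 1 in 20 groups of normally spread values. Over all 226 tested probes, each library stood apart from the other 3 of its group at 0 to 9 probes. The 9 probes were chosen with earlier results of these data known, so no excess is read from the 4. Antibiotic replicate 2 was involved for both miRNAs with the seed ACCCUGU. Its miR-10a signal was 741 units, beside 402 to 438 in the other antibiotic libraries, and its miR-10b signal was 221 units, beside 292 to 298. Control replicate 3 had 776 units of miR-196b, beside 84.8 to 149 in the other controls. Antibiotic replicate 1 had 287 units of miR-99a, beside 170 to 187 in the other antibiotic libraries.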

How the results depend on the processing

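Of 315 alternative values for the members, 270 kept direction and side of the threshold. Part of these could not change direction. F tests have none, and leaving out a library outside the comparison leaves the fold change as it was. A value that stayed short of the threshold also counts as kept. The rise of miR-10a in cecal transfer against control was called in all 27 alternatives. Leaving out both control replicate 3 and antibiotic replicate 2, thinning to the shallowest library and the marker ratios were chosen after seeing the data. The cause of a lost or gained call was not tested.

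With log2 depth as a covariate, which moves with the groups, cecal transfer minus control was -0.21 for miR-10b and 0.22 for miR-196b, and cecal transfer minus antibiotic was 0.83 for miR-10a and 0.10 for miR-10b. The F test's adjusted p for miR-10b was then 0.143. On the same fit miR-99b had -0.23 in antibiotic minus control, 0.19 in cecal transfer minus control and 0.42 in cecal transfer minus antibiotic, and miR-100 had -0.092 in antibiotic minus control. Quantile normalisation gave miR-196a -0.043 in cecal transfer minus antibiotic.

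Array weights gave miR-10b -0.24 in cecal transfer minus antibiotic (adjusted p = 0.0370). Fitting only the compared groups gave miR-196b 0.77 there (adjusted p = 0.0133). Leaving out both libraries gave, in antibiotic minus control, 0.28 for miR-10a, 0.00252 for miR-10b and -1.19 for miR-196b, and in cecal transfer minus antibiotic -0.30 for miR-10b (adjusted p = 0.00986) and 0.94 for miR-196b (adjusted p = 0.0061). Thinning gave miR-10b -0.32 in cecal transfer minus control (adjusted p = 0.0803) and an F test's adjusted p of 0.139. edgeR gave miR-196b -1.52 in cecal transfer minus control (adjusted p = 0.0497), and DESeq2 gave it -2.26 in antibiotic minus control (adjusted p = 0.0239). Both fits include control replicate 3 and were not repeated without it. Without that library limma gave -0.25 and -1.02 in the same comparisons. The F test's adjusted p for miR-196b was 0.0559 with a pseudocount of 10 and 0.0761 without the variance trend. For miR-10b it was 0.0501 without a filter, 0.0512 without the trend and 0.0614 after background subtraction.

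With each library left out in turn, antibiotic minus control ran from 0.36 to 0.72 for miR-10a, from -0.19 to -0.05 for miR-10b and from -2.08 to -1.02 for miR-196b. miR-10a (0.72) and miR-196b (-2.08) were called there without control replicate 4 (adjusted p = 0.0364 for each). Cecal transfer minus control ran from 1.54 to 1.77, from -0.39 to -0.30 and from -1.31 to -0.25 for the same miRNAs in that order. Cecal transfer minus antibiotic ran from 0.96 to 1.26, from -0.30 to -0.16 and from 0.63 to 0.94. The F test's adjusted p ran from 8.84e-06 to 0.000462, from 0.00655 to 0.105 and from 0.00851 to 0.109. For miR-99b, cecal transfer minus control ran from -0.28 to 0.00268, its highest being without cecal transfer replicate 4.

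The median of all probes moved by -0.18 (against control) and -0.22 (against antibiotic) in cecal transfer without a filter, by 0.14 against antibiotic with the depth covariate, and by 0.14 against control after background subtraction. miR-196b had 24 to 48 counts in antibiotic libraries. Its log2 SD was 0.37 there, 0.34 in cecal transfer and 1.43 in control libraries. The part of low counts in its missing calls was not tested.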
